A study of Danio rerio with 6 samples.

Results

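The genes described here are 9 endothelial genes, *plvapa*, *plvapb*, *clec14a*, *egfl7*, *ecscr*, *she*, *ramp2*, *calcrla* and *gpr182*, taken by their symbols from a table of FPKM (fragments scaled to transcript length and to the number mapped in the library) that holds 32057 genes. All 9 were found in the table. The Gene Ontology assignments in the table place 7 of them in the membrane, the exceptions being *egfl7*, which encodes a protein of the extracellular region and cell surface, and *she*, which encodes an intracellular adaptor. The table covers 6 samples of EGFP+ cells sorted at 28 hpf from Tg(*fli1a*: EGFP) zebrafish embryos, where 3 samples received a control morpholino (control MO) and the other 3 received one directed at *nlrc3* (nlrc3 MO). The study asked how *nlrc3*, a gene of the NOD-like receptor family, acts on the formation of blood stem cells from the endothelium of the dorsal aorta. All embryos carried the transgene and were injected at the 1-cell stage, and according to the methods the nlrc3 MO, which modifies splicing, was used at a higher concentration than the control MO. The *fli1a* promoter that drives EGFP is active in endothelial cells and also in neural crest derived cells of the head, so the gate does not take endothelium alone. The sources used here do not say how many embryos went into a sample or whether replicates came from separate clutches, and the p-values measure the spread between these samples.

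Vessels are lined by a single layer of endothelial cells, whose surface proteins set permeability, adhesion and the response to peptide hormones. Plvap proteins form the diaphragms that close caveolae and the pores of fenestrated endothelium. Clec14a is a transmembrane C-type lectin that binds the matrix protein Multimerin 2, Egfl7 is secreted by endothelial cells into the surrounding matrix, and Ecscr is a transmembrane protein with a role in endothelial migration. Ramp2 carries the calcitonin receptor-like receptor, which *calcrla* encodes, to the membrane, where the pair acts as a receptor for adrenomedullin. Gpr182 is a G protein-coupled receptor of endothelium that takes up chemokines in mammals.

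The other genes of the samples set the frame for these values. Total FPKM ran from 524846 to 525567 in the control MO samples and from 678620 to 687387 in the nlrc3 MO samples, and 14 globin genes made up 15.6% to 15.7% of it in the former and 34.5% to 34.8% in the latter. The targeted gene *nlrc3* lay at 0.70 to 1.09 FPKM with the control MO and at 0.15 to 0.26 FPKM with the nlrc3 MO. Among the markers of other cells, the summed level of 14 neural crest and head mesenchyme genes was 713 to 734 FPKM in control MO samples and 11.8 to 14.2 FPKM in nlrc3 MO samples, and 13 of the 14 were called lower. Of these 14, *dlx1a* was listed at 0 in 2 nlrc3 MO samples and *alx1* and *barx1* in 1 each. All 8 erythroid markers were called higher, with sums of 38485 to 38758 and 109666 to 111771 FPKM, and so were 7 of 9 myeloid markers, with sums of 560 to 562 and 1262 to 1286 FPKM. By the same rule, given in the next paragraph, 20.4% of all tested genes were called lower and 4.89% higher. The sums for 7 muscle markers were 149 to 152 and 133 to 137 FPKM. At an adjusted p under 0.05, 3 of these genes were lower and 2 higher, against 42.9% and 20.2% of all tested genes. The sum for 7 neural markers, 127 to 131 and 18.0 to 19.5 FPKM, was mostly *tubb5*, and without it the other 6 summed to 9.23 to 10.5 and 3.48 to 5.10 FPKM. Of 8 epidermal markers, *krt8* was called lower, from a mean of 665 to 277 FPKM, while 5 others were higher at an adjusted p under 0.05, so that the sum was 732 to 740 and 356 to 362 FPKM with *krt8* and 68.9 to 72.5 and 79.3 to 83.3 FPKM without it. *tubb5* and *krt8* were set apart after their values were seen. The part of these differences in the values of the 9 genes was not tested. In sorted bulk samples, fewer cells of a type and less RNA per cell cannot be told apart. Endothelial genes were detected in both groups, with 35 other endothelial genes found and tested, among them *kdrl*, *cdh5* and *tie1*, and a summed level of 1651 to 1676 FPKM and 1531 to 1562 FPKM. This sum holds *tal1* and *lmo2*, which also act in blood and had higher means with the nlrc3 MO (114 and 187 FPKM for *tal1*, 91.4 and 187 FPKM for *lmo2*). Without this pair, left out after its values were seen, the sum was 1449 to 1467 FPKM and 1156 to 1179 FPKM. Both sums hold *fli1a*, whose promoter is also active in neural crest derived cells and which had means of 205 and 90.6 FPKM. The difference between the groups in such a sum thus depends on which genes are kept. The number of reads behind each value is unknown, as FPKM carry no totals.

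Of the 9 genes, *egfl7* fell most in nlrc3 MO samples, to a ratio of means of 0.382, and *ramp2*, *calcrla* and *clec14a* fell less. With FPKM as deposited *plvapb*, *ecscr*, *she* and *gpr182* lay close to their control levels, and *plvapa* was barely detected. The test was limma on log2(FPKM + 0.1), a scale that understates the change of low genes, over the 15155 genes that reached 0.5 FPKM in 3 or more of the samples. It covered 8 of the 9 genes and left out *plvapa*. A gene was called at a Benjamini-Hochberg adjusted p under 0.05 with a fold change above 2 or under 0.5. By this rule 1 of the 8 genes was called lower, where 20.4% of all tested genes were, and 0 were called higher, where 4.89% of all were. At an adjusted p under 0.05 alone, 5 of the 8 were lower, against 42.9% of all tested genes, and 0 were higher, against 20.2%. Every nlrc3 MO sample lay below every control MO sample in 6 of the 8 (46.1% of all tested genes), and above in 0 (22.8% of all). The median log2 fold change was -0.35 over the 8 genes, -0.077 over the 35 other endothelial genes and -0.22 over all tested genes. Rescaling the libraries by median-of-ratios factors moved these medians to -0.14, 0.14 and -0.0084, and rescaling to equal totals (TPM) moved them to -0.73, -0.45 and -0.60. The share of lower genes among all calls was 80.7% with FPKM as deposited, 67.8% with median-of-ratios factors and 94.5% with TPM.

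**Figure D1:**
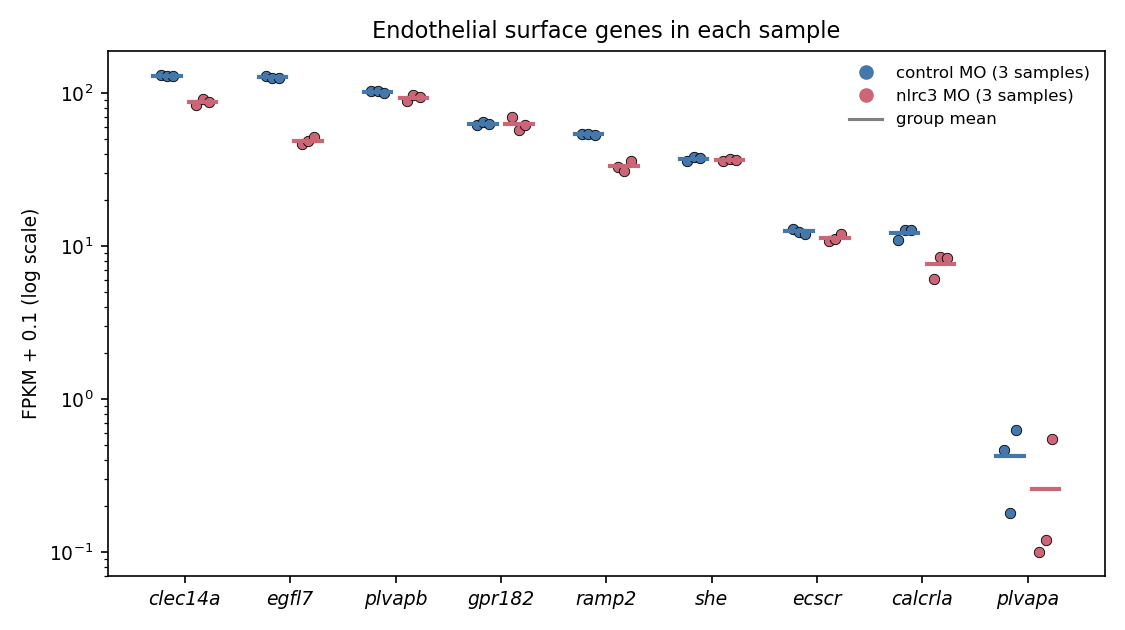
FPKM + 0.1 on a log axis for the 9 genes, ordered by their mean with the control MO, with 1 point per sample (3 control MO, 3 nlrc3 MO) and a line at each group mean. The groups are far apart for *egfl7*, apart for *clec14a*, *ramp2* and *calcrla*, close or overlapping for *plvapb*, *gpr182*, *she* and *ecscr*, and *plvapa* lies below 1 FPKM in every sample.

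The matrix protein gene *egfl7* (ENSDARG00000100657) was at 128.78, 125.76 and 125.65 FPKM in control MO replicates 1 to 3, against 46.05, 48.11 and 51.17 FPKM in nlrc3 MO replicates 1 to 3. No sample of one group came near the range of the other. The means were 127 ± 1.78 and 48.4 ± 2.58 FPKM (SD, n = 3 for both), a log2 fold change of -1.39 (SE 0.042, adjusted p 1.44e-07). It stayed a called gene in all 15 alternative fits, with log2 fold changes from -1.76 to -1.17. In rank terms, *egfl7* stood above 97.9% to 98.0% of the genes detected in a control MO sample and above 94.2% to 94.7% of those detected in an nlrc3 MO sample. The bases of these percentages differ, as 21041 to 21737 genes were above 0 FPKM in control MO samples and 19060 to 19609 in nlrc3 MO samples. The fall of *egfl7* made up 50.2% of the fall of the summed FPKM of the 9 genes, which went from 532 to 538 down to 372 to 387 FPKM. The genes with the most similar centred log2 profile over the 6 samples, among 7625 genes with a mean of at least 5 FPKM, were *mtss1la* and *znf654*, at root-mean-square differences of 0.031 and 0.032 in log2 units. Among so many genes, a like fold change alone can give a close match, here and below. Shared regulation was not tested.

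The lectin gene *clec14a* (ENSDARG00000103533) was the most abundant of the 9 with the control MO. It stood at 131.61, 128.03 and 128.53 FPKM in control MO replicates 1 to 3, against 82.99, 91.32 and 87.05 FPKM in nlrc3 MO replicates 1 to 3. The groups did not overlap, and the log2 fold change was -0.57 (SE 0.039, adjusted p 9.88e-06), short of the fold limit of a call. In each control MO sample *egfl7* and *clec14a* were nearly level, with a ratio of 0.978 to 0.982, and in the nlrc3 MO samples the ratio was 0.527 to 0.588. The log2 ratio of the pair differed by -0.82 between the groups, with no overlap (two-sided exact permutation p = 0.1, the smallest that 3 samples against 3 allow, adjusted p = 0.175 over 7 ratios). The profiles most like that of *clec14a* were those of *nop53* and *morc2*, at root-mean-square differences of 0.0081 and 0.018. Both of these genes have other roles than vessel formation, ribosome assembly and chromatin silencing in mammals.

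Of the group XIV lectins and the multimerins that some of them bind, 6 of 8 listed genes were in the table and tested. Of these 6, 2 were called lower and 0 higher, where 20.4% and 4.89% of all tested genes were. The relatives *cd248a* and *cd248b* encode endosialin, which mammals express in mesenchyme and pericytes, and both were called lower. *cd248b* had means of 85.0 and 0.377 FPKM in the control MO and nlrc3 MO groups, a log2 fold change of -7.49, and *cd248a* means of 16.0 and 0.263 FPKM, a log2 fold change of -5.54. The log2 fold change of *mmrn2a*, the ligand gene on this list with the higher level, was -0.30 (adjusted p 0.00174), and that of *mmrn2b* was 0.024 (adjusted p 0.795). The log2 fold change of *thbd*, the thrombomodulin gene, was -0.75 with overlapping groups (adjusted p 0.130), and it was called lower without nlrc3 MO replicate 2 (-1.15, adjusted p 0.0189) and as TPM (-1.11, adjusted p 0.0331). Of the genes listed beside *egfl7* for EGF-like or EMILIN domains, 5 of 7 were in the table, and *emilin1a* and *emilin1b*, which encode elastic fiber glycoproteins, were called lower with log2 fold changes of -5.41 and -2.32. *egfl6* was called higher from a mean of 0.797 to 1.98 FPKM, a call that was lost as TPM (log2 fold change 0.85) and with a pseudocount of 1 (0.72). These calls, 2 lower and 1 higher of 5 genes, stand against the same shares of all tested genes.

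Both genes of the adrenomedullin receptor fell in nlrc3 MO samples. *ramp2* (ENSDARG00000037895) was at 53.78, 53.60 and 53.18 FPKM in control MO replicates 1 to 3, against 32.50, 30.70 and 35.90 FPKM in nlrc3 MO replicates 1 to 3. The control MO samples lay within 1 FPKM of each other and well above the other group, and the log2 fold change was -0.70 (SE 0.058, adjusted p 2.91e-05). *calcrla* (ENSDARG00000011473) was at 10.75, 12.60 and 12.58 FPKM in control MO replicates 1 to 3, against 5.93, 8.42 and 8.21 FPKM in nlrc3 MO replicates 1 to 3. Replicate 1 was the lowest of both groups, which still did not overlap. The log2 fold change of *calcrla* was -0.68 (SE 0.14, adjusted p 0.00417) and ran from -0.77 to -0.52 with single samples left out. Neither gene reached the fold limit with the deposited FPKM, and both were called lower as TPM, at -1.07 for *ramp2* and -1.05 for *calcrla*. The FPKM ratio of *calcrla* to *ramp2* was 0.200 to 0.237 in control MO samples and 0.182 to 0.274 in nlrc3 MO samples, so the groups overlapped in this ratio (exact permutation p = 1).

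The paralog *calcrlb* had means of 12.4 ± 0.725 and 8.25 ± 0.275 FPKM (SD, n = 3 for both), with a log2 fold change of -0.58 (adjusted p 0.00018). The ratio of *calcrla* to *calcrlb* overlapped between the groups, from 0.917 to 1.02 and from 0.730 to 1.02 (exact permutation p = 0.9). Of the 14 ligand and receptor genes listed for this system, 10 were in the table and 7 were tested. Of these 7, 2 were called lower and 1 higher, where 20.4% and 4.89% of all tested genes were. Among the ligand genes the adrenomedullin genes were lower. *adma* had a mean of 9.93 FPKM with the control MO and 3.06 FPKM with the nlrc3 MO, a log2 fold change of -1.68 (SE 0.15, adjusted p 3.82e-05). *admb*, at 1.97 to 2.02 FPKM with the control MO and 0.35 to 0.72 FPKM with the nlrc3 MO, had a log2 fold change of -1.68 too, and its call was lost with a pseudocount of 1 (-0.93). The related *adm2a* moved the other way, from 0.97, 0.87 and 1.29 FPKM to 3.59, 3.92 and 4.42 FPKM in replicates 1 to 3, a log2 fold change of 1.85 (SE 0.18, adjusted p 6.46e-05). *adm2b* was listed at 0 in every sample, and *calca* and *calcr* did not pass the filter.

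**Figure D2:**
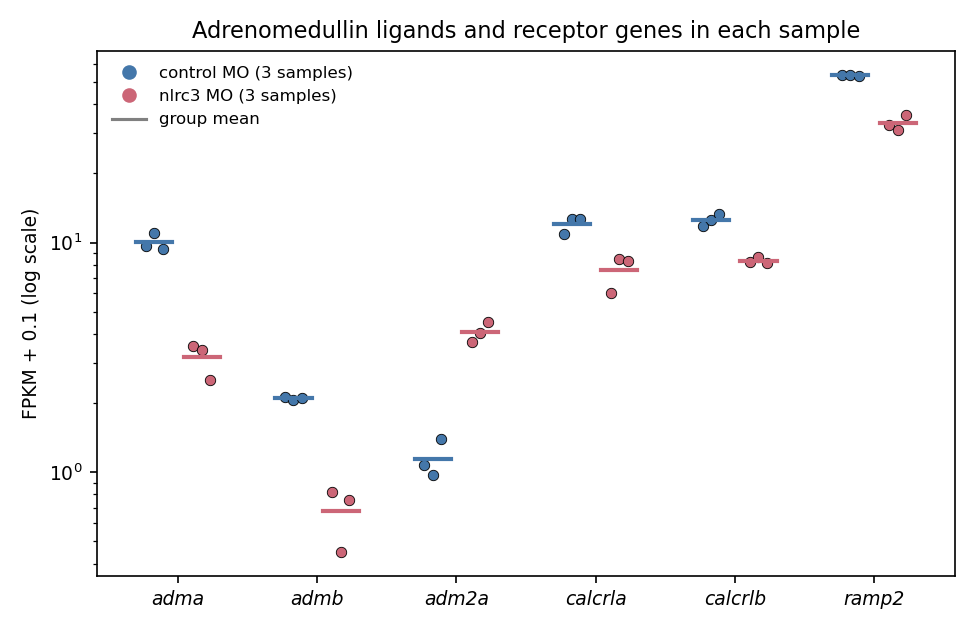
FPKM + 0.1 on a log axis for 3 ligand genes (*adma*, *admb*, *adm2a*) and 3 receptor genes (*calcrla*, *calcrlb*, *ramp2*), with 1 point per sample and a line at each group mean. All except *adm2a* were lower in the 3 nlrc3 MO samples than in the 3 control MO samples, and *adm2a* was higher.

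The diaphragm genes differed greatly in level. *plvapb* (ENSDARG00000045003) was at 102.25, 102.89 and 100.21 FPKM in control MO replicates 1 to 3, against 88.10, 96.39 and 94.20 FPKM in nlrc3 MO replicates 1 to 3. The groups did not overlap but lay close together. The log2 fold change was -0.13 (SE 0.038, adjusted p 0.0180), with a 95% confidence interval of -0.22 to -0.043. This difference turned to 0.084 after median-of-ratios scaling and came to -0.51 as TPM (adjusted p 1.78e-05). With FPKM as deposited its adjusted p rose to 0.0559 without control MO replicate 1 and to 0.0588 without control MO replicate 2. In a fit without a trend on the mean it was 0.101. In the nlrc3 MO group *plvapb* had the highest mean of the 9 genes, having been in place 3 with the control MO, although its range there overlapped that of *clec14a*. The profiles nearest to that of *plvapb* were those of *snrpb*, which encodes a spliceosome protein, and *mknk2b*, a kinase gene, at root-mean-square differences of 0.015 and 0.019. *plvapa* (ENSDARG00000076972) was at 0.36, 0.08 and 0.53 FPKM in control MO replicates 1 to 3, and in nlrc3 MO replicates 1 to 3 it was listed at 0 and stood at 0.02 and 0.45 FPKM. It passed 0.5 FPKM in 1 sample, the groups overlapped, and no change can be read at this level.

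Plvap sits in caveolae as well as fenestrae. Of 14 genes listed for these structures 13 were in the table and 10 tested. Of these 10, 1 was called lower and 0 higher, where 20.4% and 4.89% of all tested genes were. The called gene was *ehd2b*, a gene for a caveolar ATPase, with a log2 fold change of -1.30, which came to -0.99 with a pseudocount of 1. The coat gene *cav1* had a mean of 10.2 FPKM with the control MO and 10.3 FPKM with the nlrc3 MO (log2 fold change 0.014, 95% confidence interval -0.13 to 0.16). *cavin2b*, the most abundant cavin gene, had means of 16.9 and 17.5 FPKM, with overlapping groups. At an adjusted p under 0.05 alone, 4 of the 10 genes were lower and 2 higher, against 42.9% and 20.2% of all tested genes. The higher genes were *cavin1b* (log2 fold change 0.54) and *cav3* (0.73). The lower genes were *ehd2b*, *plvapb*, *cavin4a* (-0.58) and *cavin4b* (-0.70).

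*ecscr* (ENSDARG00000087457), annotated in zebrafish to the migration of angioblasts to the midline, was at 12.76, 12.31 and 11.90 FPKM in control MO replicates 1 to 3, against 10.70, 11.06 and 11.89 FPKM in nlrc3 MO replicates 1 to 3. The ranges almost touched, and the log2 fold change of -0.14 (SE 0.064) had an adjusted p of 0.101 and a 95% confidence interval of -0.29 to 0.014. It came to 0.080 after median-of-ratios scaling (adjusted p 0.296) and to -0.51 as TPM (adjusted p 0.000229). *she* (ENSDARG00000087956), which encodes an adaptor whose Src homology domain binds phosphotyrosine, was at 35.75, 37.74 and 37.16 FPKM in control MO replicates 1 to 3, against 35.57, 36.96 and 36.11 FPKM in nlrc3 MO replicates 1 to 3. Its groups overlapped, and the 95% confidence interval of its log2 fold change was -0.12 to 0.064 at the deposited scaling (adjusted p 0.578). The value came to 0.19 after median-of-ratios scaling (adjusted p 0.00324) and to -0.40 as TPM (adjusted p 5.50e-05). The FPKM ratio of *she* to *egfl7* was 0.278 to 0.300 in control MO samples and 0.706 to 0.772 in nlrc3 MO samples (exact permutation p = 0.1, adjusted p = 0.175 over 7 ratios). The related adaptor genes *shda* and *shdb*, the other members of the Shb family list that were found, were both called lower, with log2 fold changes of -1.20 and -2.18. Of all tested genes, 20.4% were called lower. The call of *shda* was lost after median-of-ratios scaling (-0.99) and with a pseudocount of 1 (-0.80).

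*gpr182* (ENSDARG00000036616) was at 61.14, 64.52 and 62.30 FPKM in control MO replicates 1 to 3, against 69.91, 57.13 and 61.69 FPKM in nlrc3 MO replicates 1 to 3. The nlrc3 MO samples spread to both sides of the control MO samples, with replicate 1 highest and replicate 2 lowest. The means were 62.7 ± 1.72 and 62.9 ± 6.48 FPKM (SD, n = 3 for both), and the log2 fold change of 0.0012 (SE 0.070, adjusted p 0.989) had a 95% confidence interval of -0.16 to 0.17. Its sign depended on the scaling, with 0.22 after median-of-ratios scaling (adjusted p 0.0369) and -0.38 as TPM (adjusted p 0.00134). Of the chemokine receptors and ligands listed with *gpr182*, 7 of the 9 genes were tested with *gpr182* among them. Of these 7, 4 were called lower and 0 higher, where 20.4% and 4.89% of all tested genes were. The lower calls were the scavenger receptor genes *ackr3a* and *ackr3b*, the receptor gene *cxcr4a* and the ligand gene *cxcl12a*. Their log2 fold changes were -1.89, -2.14, -2.17 and -1.83. The call of *ackr3a* was lost with a pseudocount of 1 (-0.69). The ligand gene *cxcl12b* had means of 51.5 and 27.1 FPKM, a log2 fold change of -0.92. The paralog *cxcr4b* went the other way, from a mean of 8.09 to 10.9 FPKM with no overlap, a log2 fold change of 0.43 (adjusted p 0.00157).

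**Figure D3:**
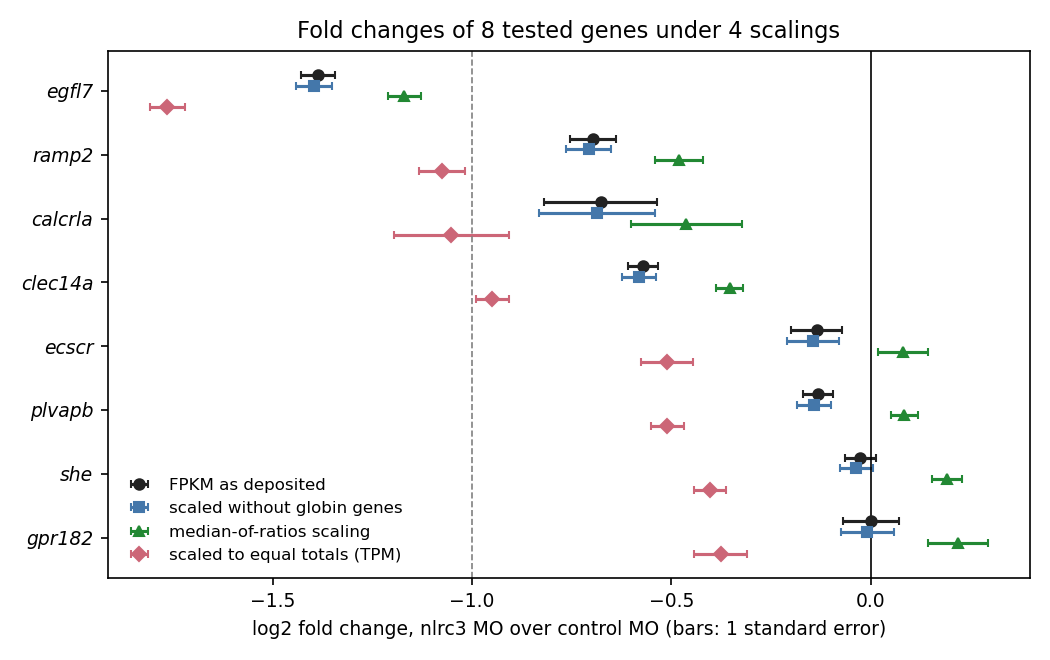
Log2 fold change (nlrc3 MO over control MO, bars of 1 standard error) of the 8 tested genes with FPKM as deposited, rescaled without globin genes, by median-of-ratios factors and to equal totals. *egfl7* lies below the dashed line at -1 under each of the 4 scalings, from -1.76 to -1.17, *ramp2*, *calcrla* and *clec14a* lie below 0 under each, and *plvapb*, *ecscr*, *she* and *gpr182* change sign.

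In all 4 scalings *egfl7* had the lowest log2 fold change of the 8. Rescaling a library shifts all its genes nearly alike, so the scalings could hardly change this order and are no test of it. Set against the median of the 35 other endothelial genes in the same sample on the log2(FPKM + 0.1) scale, *egfl7* differed by -1.31, *ramp2* by -0.62, *calcrla* by -0.60 and *clec14a* by -0.49. For each of these 4 genes the groups gave an exact permutation p of 0.1, the smallest possible, and an adjusted p of 0.225 over the 9 genes. The corresponding values were -0.056 for *plvapb*, -0.058 for *ecscr*, 0.051 for *she* and 0.078 for *gpr182*, with exact permutation p-values of 0.4 to 0.6. The median of *kdrl*, *cdh5*, *tie1*, *pecam1* and *cldn5b* served as another reference. These 5 genes all had negative log2 fold changes, from -0.61 (*cldn5b*) to -0.077 (*tie1*). Of the 35 genes, 15 were lower and 8 higher at an adjusted p under 0.05. A reference that falls shifts all values upward alike. Against the 5 genes, the values of *egfl7*, *ramp2*, *calcrla* and *clec14a* were smaller, at -1.02, -0.33, -0.31 and -0.20. Those of *plvapb*, *ecscr*, *she* and *gpr182* were 0.24, 0.24, 0.35 and 0.37.

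Among the 35 other endothelial genes 5 (14.3%) were called lower and 1 higher, where 20.4% and 4.89% of all tested genes were. Lower log2 fold changes than that of *egfl7* were found in 2 of the 35. These were *efnb2a* (from 37.3 to 10.6 FPKM) and *dll4* (from 18.9 to 6.41 FPKM), an ephrin ligand gene and a Notch ligand gene of arterial endothelium. By qPCR the paper found *dll4*, *ephrinB2* and *kdrl* unaltered against its control group. It also saw no clear vascular defect by in situ hybridization for *kdrl* and *dlc*, at a slightly earlier age than the sort, or in Tg(*kdrl*:mCherry) embryos. From its RNA-seq the paper reported Notch family genes reduced to different extents. Its discussion gives *deltaC*, *deltaD* and *notch3* as largely unchanged and Vegf family genes as lower. It also states that *flt4* and *kdrl* lacked a marked fall. Here *kdrl* had means of 64.2 and 49.1 FPKM, a log2 fold change of -0.39 (adjusted p 4.47e-05), short of a call. The log2 fold change of *flt4* was 0.021 (adjusted p 0.699). The paper does not state with its qPCR result whether sorted cells were used, and the difference from the values here was not tested. The other lower calls, with log2 fold changes in parentheses, were *fli1a* (-1.17), whose promoter drives the reporter used for the sort, *sox18* (-1.03), a transcription factor gene, and *nrp1a* (-1.02), a coreceptor gene for Vegf. The higher call was *lmo2* (1.03), which encodes a partner of Tal1 in blood and endothelium. The calls of *fli1a*, *sox18* and *nrp1a* were lost after median-of-ratios scaling, at -0.96, -0.81 and -0.80, and that of *lmo2* as TPM, at 0.66. *sox18* also lost it without nlrc3 MO replicate 3 (-0.99) and *nrp1a* without nlrc3 MO replicate 1 (-0.89), with a pseudocount of 1 (-0.93) and, just short of the limit, without control MO replicate 2. *she* and *gpr182* had 19 of the 35 genes below them, and *clec14a* had 8. The most abundant of the 35, the scavenger receptor gene *stab2*, had means of 170 and 175 FPKM, a log2 fold change of 0.040 (adjusted p 0.186).

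**Figure D4:**
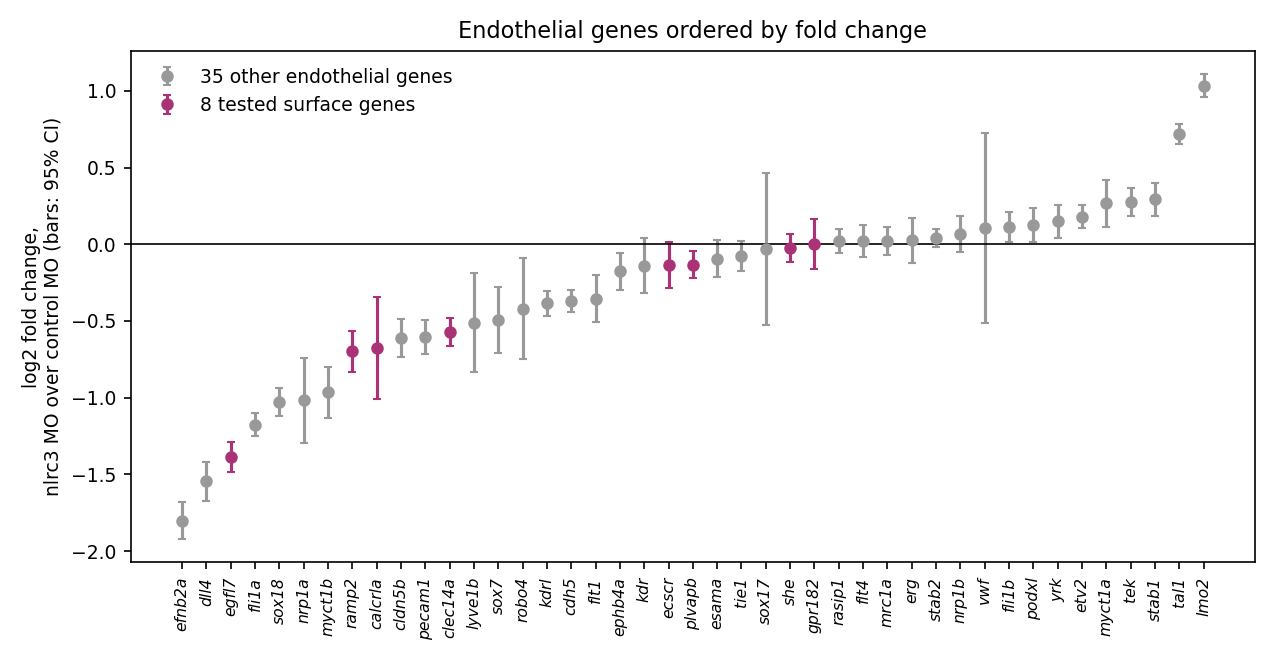
Log2 fold change (nlrc3 MO over control MO, bars of 95% confidence intervals) of the 8 tested surface genes and 35 other endothelial genes, in ascending order. *egfl7* is in place 3 from the low end at -1.39, *ramp2*, *calcrla* and *clec14a* lie between -0.70 and -0.57, and *ecscr*, *plvapb*, *she* and *gpr182* lie between -0.14 and 0.0012.

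With the control MO the levels, which are per length and so comparable between genes, ran from *clec14a* and *egfl7* (129 and 127 FPKM) through *plvapb* (102 FPKM), *gpr182* (62.7 FPKM), *ramp2* (53.5 FPKM) and *she* (36.9 FPKM) to *ecscr* and *calcrla* (12.3 and 12.0 FPKM) and *plvapa* (0.323 FPKM). The ranges of *clec14a* and *egfl7* overlapped, as did those of *ecscr* and *calcrla*, and the other neighbors were apart. With the nlrc3 MO the order was *plvapb* (92.9 FPKM), *clec14a* (87.1 FPKM), *gpr182* (62.9 FPKM), *egfl7* (48.4 FPKM), *she* (36.2 FPKM), *ramp2* (33.0 FPKM), *ecscr* (11.2 FPKM), *calcrla* (7.52 FPKM) and *plvapa* (0.157 FPKM). There the ranges of *plvapb* and *clec14a* overlapped, as did those of *she* and *ramp2*. *egfl7* thus lay above *gpr182* in all 3 control MO samples and below it in all 3 nlrc3 MO samples, with FPKM ratios of *gpr182* to *egfl7* of 0.475 to 0.513 and 1.19 to 1.52 (exact permutation p = 0.1, adjusted p = 0.175 over 7 ratios).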

How the data were processed

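RNA of sorted EGFP+ cells was sequenced by the authors in 3 control MO and 3 nlrc3 MO samples, each with its own column. The methods state Cutadapt for trimming, HISAT2 for mapping to an Ensembl zebrafish genome and StringTie for assembly, and the authors deposited FPKM with 2 decimals. The submitters' processing notes name other tools and a mouse build, which could not be reconciled with zebrafish gene identifiers. Column names give the morpholino only in short form and were assigned through the headings of the study's source data. The table also holds the authors' fold changes, p-values and q-values, which were not used.

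FPKM were analyzed as deposited. Read depth is unknown. Steps of single reads were not visible among low values (5.23% of 3363 low genes shared the most common ratio between 2 control samples, in bins of 0.02 log2 units). Rounding to 2 decimals can blur such steps, so their absence says nothing about depth. Genes that reached 0.5 FPKM in 3 or more samples were fitted in limma 3.58.1 (R 4.3.3) on log2(FPKM + 0.1), with a trend on the mean (prior degrees of freedom 3.36), and p-values were adjusted over the 15155 tested genes. Ratios within samples were compared by two-sided exact permutation tests. The genes described, the lists set beside them and the alternatives were chosen with earlier results of these data known. From each list the called genes and the most abundant were named, and for the 3 most abundant of the 9 genes the nearest profiles. Alternatives were pseudocounts of 1 and 0.01, no filter and a filter at 1 FPKM, 3 other scalings, a replicate block, no trend, no fold limit and leaving out each sample. The software for tables and plots was Python 3.11.15, pandas 2.3.3 and matplotlib 3.10.9. Promoter and protein sequences were not used here.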

Additional observations from a re-analysis of the deposited data

How the results depend on the processing

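Whether same-numbered replicates of the groups were paired is not stated. The deviations of same-numbered samples from their group means had correlations of -0.0034 to 0.040. Those of samples with different numbers ran from -0.035 to 0.035. With 3 samples per group these values cannot show whether replicates shared a clutch or a sort. With a replicate block 1 of the 8 genes was again called lower and 3102 of all tested genes were, and no call of the 9 genes changed. As TPM, 3 of the 8 genes were called lower, where 4682 of 15268 tested genes were. All 8 were lower at an adjusted p under 0.05, as were 9852 of the 15268 tested genes, while 1375 were higher. In that scaling 0 other endothelial genes were called higher, and the adrenomedullin and caveolae lists had 5 and 2 calls. After median-of-ratios scaling 2 other endothelial genes were called lower and the Shb family list had 1 call. With a pseudocount of 1 the caveolae list had 0 calls and the Shb family list 1. Without a fold limit, 5 of the 8 genes, 15 other endothelial genes (lower) and 8 (higher) were called, and the adrenomedullin, lectin and caveolae lists had 6, 4 and 6 calls. Over all tested genes, 3091 were called lower and 741 higher, against 1944 and 354 with a pseudocount of 1, 4682 and 274 as TPM, 2470 and 1171 after median-of-ratios scaling and 6496 and 3062 without a fold limit. Log2 fold changes turned their sign after median-of-ratios scaling for *plvapb* (0.084), *ecscr* (0.080) and *she* (0.19), and for *gpr182* as TPM (-0.38) and without globin genes (-0.0087). With single samples left out *gpr182* ran from -0.077 to 0.068, the log2 ratio of *calcrla* to *calcrlb* from -0.18 to 0.055 and that of *calcrla* to *ramp2* from -0.12 to 0.17. Relative to other endothelial genes, *plvapb* ran from -0.094 to 0.0095 and *ecscr* from -0.13 to 0.0020 in the same way. Against the mean of that list they came to 0.11 and 0.10, with 0.21 for *she* and 0.24 for *gpr182*. Against 5 reference genes, which all had negative log2 fold changes, the values were 0.24, 0.24, 0.35 and 0.37 in the same order. A reference that falls shifts all values upward alike, and why these 5 genes had lower values was not tested. In the 15 alternative limma fits, *egfl7*, *clec14a*, *ramp2* and *calcrla* kept their direction and an adjusted p under 0.05. Relative to the median of the other endothelial genes, exact permutation tests gave each of these 4 genes an adjusted p of 0.225. Their exact p of 0.1 was the smallest that 3 samples against 3 allow, so this test could not reach 0.05. Depth is unknown, so no limit of detection is given.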
